A study of Mus musculus with 3 samples.

Results

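Tight junctions and desmosomes are the junctions that hold epithelial cells together, and the genes for their main proteins were compared here between mutant and wild-type mouse embryoid bodies. The genes were chosen by name on the array: the numbered claudins other than Cldn5, the numbered desmogleins (Dsg) and desmocollins (Dsc), desmoplakin (Dsp), the plakophilins (Pkp), plakoglobin (Jup), periplakin (Ppl), envoplakin (Evpl), occludin (Ocln), the zonula occludens proteins (Tjp), cingulin (Cgn), junctional adhesion molecule A (F11r) and the Marveld proteins. This gave 50 genes with 63 probes, of 30175 named genes on the array. A gene counted as measured when 1 of its probes gave a signal well over the local background for mutant or wild-type RNA on each of the 3 arrays, which held for 32 of the 50 genes and for 20094 genes in all. The measured genes were 14 of 24 claudins, 5 of 5 other tight junction membrane proteins, 4 of 4 tight junction scaffolds, 2 of 9 desmosomal cadherins and 7 of 8 desmosome plaque genes. All 50 genes matched a RefSeq gene, and the genes named Cldn26 and Cldn27 on the array are Tmem114 and Tmem235 there.

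Embryoid bodies are floating aggregates of differentiating embryonic stem cells. Those of both genotypes were kept for 10 days in suspension, in plates to which cells attach poorly, and without LIF, the cytokine that keeps mouse stem cells undifferentiated. The mutant, named Dido3deltaCT+HADidoNT in the labels, has a Dido3 protein cut short at its C-terminal end and in addition overexpresses an HA-tagged N-terminal region that the Dido isoforms share and that holds a PHD domain. The control carries the label Wildtype control. Neither the promoter of the HA-tagged construct nor the number of cell clones is named in the labels. Each of 3 Agilent arrays carried 1 mutant and 1 wild-type RNA in 2 colours, from 3 biological replicates per genotype, where Cy3 marked the mutant on array 1 and array 3 and Cy5 marked it on array 2. Ratios below are log2 of mutant over wild type, with SD over the arrays (n = 3 unless stated), and levels are normalised intensities in linear units, which serve to compare genotypes at 1 probe and not 1 probe with another.

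A tight junction is a belt of claudin strands that closes the space between neighbouring epithelial cells, and the set of claudins decides which ions and solutes may pass. Occludin, Marveld2 and Marveld3 sit in the same strands, and the zonula occludens proteins and cingulin tie the strands to actin. Marveld1 is grouped with the tight junction membrane proteins here by its name. A desmosome is a spot weld, in which desmogleins and desmocollins hold on to the next cell and plakoglobin, plakophilins and desmoplakin link them to keratin or desmin filaments. In embryoid bodies the outer visceral endoderm is an epithelium with such junctions. The inner epiblast-like and neural cell layers are epithelia too, and heart muscle cells have desmosomes without tight junctions.

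Of the 4 probes for Dido1, the mutated gene, 3 passed the adjusted threshold, with log2 ratios of -3.60, 2.35 and 3.03, and the fourth had -0.54. The part of the transcript that each probe reads was not assigned here, so these ratios, which go both ways, do not check the labels beyond a difference in Dido1 RNA between the channels. The mutant RNAs of arrays 1 and 3 and the wild-type RNA of array 2 each stood apart from their replicates in some cell type markers. The sums of marker levels given next follow the brightest probes of each list and compare genotypes within a list only. Beside the counts stand 22.7% of all genes that were higher on every array and 19.3% that were lower. Visceral endoderm markers (8 of 8 measured, 7 of them higher on every array) summed to 619800, 330800 and 507100 units in mutant embryoid bodies on arrays 1, 2 and 3, against 48950, 173100 and 88030 units in wild type. Of the 619800 units, Rbp4 alone gave 218270. Neural progenitor markers (5 of 5 measured, 4 of them lower on every array) summed to 2137, 2537 and 2274 units in the mutant, against 20060, 2932 and 19610 units in wild type. Cardiomyocyte markers (6 of 6 measured, all 6 higher on every array) summed to 13750, 76390 and 62380 units in the mutant, against 4004, 7295 and 9265 units in wild type. Undifferentiated stem cell markers (4 of 4 measured, 1 higher and 0 lower on every array) summed to 7317, 5205 and 54520 units in the mutant, against 34150, 25190 and 20420 units in wild type. Of the 54520 units, Zfp42 gave 30036 and Pou5f1 gave 18471. Trophoblast markers (6 of 6 measured, 3 higher and 2 lower on every array) summed to 11980, 11210 and 10260 units in the mutant, against 6026, 6437 and 5267 units in wild type. Endothelium markers (5 of 5 measured, 4 of them higher on every array) summed to 8917, 6900 and 4645 units in the mutant, against 2882, 3007 and 2532 units in wild type. Visceral endoderm, cardiomyocyte, trophoblast and endothelium sums did not overlap between genotypes. The trophoblast list had no common direction, whatever its sum. Cdx2, Hand1 and Gata3 were higher on every array, with mean log2 ratios of 2.14, 1.82 and 1.53. Tfap2c and Elf5 were lower on every array, with -1.66 and -0.32, and Prl3d1 differed in sign. For visceral endoderm the wild-type RNA of array 2 had the highest of the wild-type sums, while for neural markers that RNA was close to the mutant ones. Cardiomyocyte markers had their largest median ratio on array 2, where the junction genes described next had their smallest. Of the stem cell markers 3 differed in sign between arrays, and the dim Nanog was higher on every array, with a mean log2 ratio of 0.26. The part of these cell types in the junction values was not tested. Each RNA came from whole embryoid bodies, in which fewer cells of a type and less RNA per cell cannot be told apart.

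No junction gene passed the adjusted threshold (limma with Benjamini-Hochberg adjustment, 0.05), a threshold that 1.37% of all genes passed, 1.04% as higher and 0.338% as lower in the mutant. An unadjusted p under 0.05 was reached by 15 of the 32 measured junction genes, or 46.9%, against 19.6% of all genes. Of the 32, 12 were higher, or 37.5%, against 12% of all genes, and 3 were lower, or 9.38%, against 7.59% of all genes. The 12 included the claudins Cldn2, Cldn6, Cldn7, Cldn9 and Cldn15, the adhesion molecule F11r, the scaffold Cgn and the desmosome genes Dsc2, Dsg2, Dsp and Pkp2, and the 3 were Cldn3, Cldn10 and Cldn11. Cldn11 counted as measured through wild type only. Where both genotypes had to be above background on all 3 arrays, it was not tested and Cldn10 had an unadjusted limma p of 0.0517. Of the 13 junction genes then at an unadjusted p under 0.05, 12 were higher and the other was Cldn3. At an adjusted p under 0.1 stood 5 junction genes as higher, or 15.6%, against 4.7% of all genes, and none as lower, against 1.83% of all genes. The 5 were Cldn6, Cldn9, Cldn15, Dsc2 and F11r. The median log2 ratio of the 32 genes was 0.27 and that of all genes tested was -0.012. With array 2 left out the fit passed 15 of 31 junction genes as higher, against 15.4% of all genes, and 1 as lower, against 10.2% of all genes, but it then has the mutant in 1 dye only, so that dye and genotype cannot be told apart. Without array 1 or without array 3 no junction gene passed, and no gene of the whole array did either, although 1648 and 2347 genes had an unadjusted p under 0.05 in those fits.

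**Figure D1:**
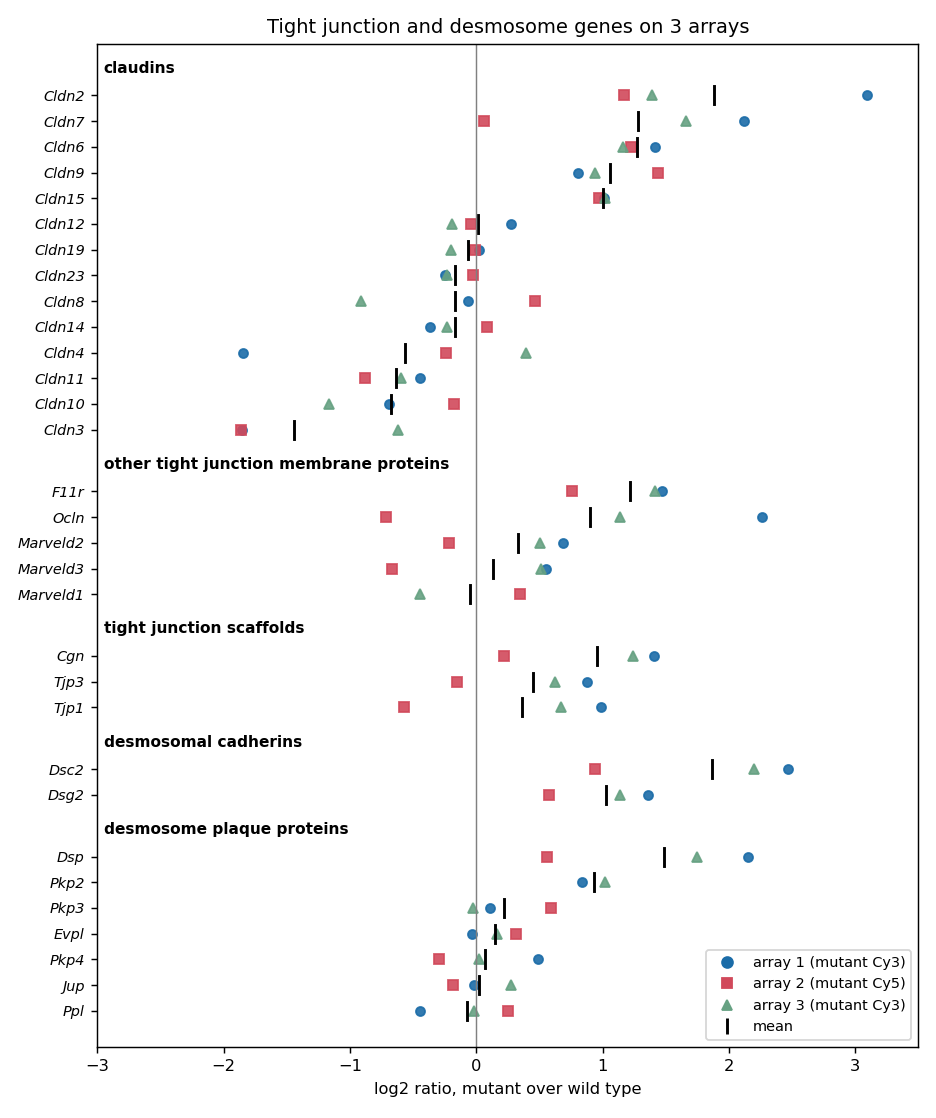
Log2 ratio of mutant over wild type on each array (points, horizontal axis) for 31 of the 32 measured junction genes, grouped by role, with the mean as a black bar. Cldn2 and Cldn6 are above 1 on all 3 arrays, Cldn3 is below 0 on all 3, and for many of the genes with high means, such as Ocln and Cldn7, the array 2 square lies far to the left of the other points.

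Among the claudins, 5 of the 14 measured were higher on every array, 4 were lower on every array and 5 differed in sign. The 4 include Cldn11, measured through wild type only. Over all 32 junction genes the counts were 12 higher, or 37.5%, against 22.7% of all genes, and 4 lower, or 12.5%, against 19.3% of all genes, counting a gene with 2 arrays by those 2. The claudin median of -0.12 covers a split that ran from -1.45 for Cldn3 to 1.89 for Cldn2.

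Cldn2 forms pores for small cations and water in leaky epithelia such as kidney tubule and gut crypt. It gave 2318, 1365 and 753 units in mutant embryoid bodies on arrays 1, 2 and 3, against 271, 607 and 287 units in wild type. Every mutant value lay above every wild-type value, but the mutant values spread over a wide range. The mean log2 ratio was 1.89 ± 1.05 (SD), a 3.69-fold difference, with a 95% interval of 0.75 to 3.02 and an adjusted p of 0.113. A second probe gave log2 ratios of 1.71, 1.25 and 0.96, so both probes were higher in the mutant on all arrays. Cldn2 and Cldn6 were the junction genes at least 2-fold higher on every array, 2 of 32 or 6.25%, against 3.14% of all genes, and no junction gene was 2-fold lower on every array, against 1.07% of all genes.

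Cldn6 is a claudin of embryonic epithelia, found early in epithelial differentiation of stem cells. Its values were 18174, 16959 and 14456 units in the mutant, against 6805, 7261 and 6451 units in wild type. The 3 arrays lay close together and the genotypes were far apart. The mean log2 ratio was 1.27 ± 0.13 (SD), a 2.41-fold difference with an interval of 0.78 to 1.75, and the adjusted p of 0.0563 was the lowest of any junction gene. Its neighbour Cldn9, which in the inner ear keeps potassium from leaking between cells, had 3165, 3443 and 3265 units in the mutant, against 1813, 1273 and 1702 units in wild type. These genotypes did not overlap either, and here array 2 held the largest ratio. Cldn9 averaged a log2 ratio of 1.06 ± 0.33 (SD, adjusted p 0.0922). The probes of Cldn6 (chr17:23819027-23819086, plus strand) and Cldn9 (chr17:23820168-23820227, minus strand) lie 1081 bases apart on the mm9 genome, with the genes on opposite strands.

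Cldn7, a claudin found along much of the gut and kidney epithelium and often along the side walls of cells, had 37454, 21862 and 21714 units in the mutant, against 8645, 20982 and 6881 units in wild type. The wild-type value of array 2 lay just under the lowest mutant value, and the other wild-type values were far lower. The mean log2 ratio was 1.28 ± 1.08 (SD, adjusted p 0.218), with 0.06 on array 2 against 2.12 and 1.66 on arrays 1 and 3. A second Cldn7 probe was above background on only 2 arrays in each genotype and was not kept. It lay near background and gave -0.02, 0.17 and -0.04 on arrays 1, 2 and 3. Cldn15, a sodium pore of the small intestine, was dim but even, with 267, 247 and 246 units in the mutant, against 132, 126 and 122 units in wild type. Its log2 ratio of 1.00 ± 0.03 (SD) had the smallest spread of all junction genes, and its adjusted p was 0.0727. With the ratios that the scanner software computed, the log2 ratio of Cldn15 was 1.67 with an adjusted p of 0.0488, the 1 junction gene to pass there as higher, against 2.84% of all genes, and none passed as lower, against 0.916%.

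Cldn3, a barrier-forming claudin of many simple epithelia, went the other way. It had 1407, 1677 and 1903 units in the mutant, against 5079, 6093 and 2928 units in wild type. All mutant values were below all wild-type values, and array 3 showed the smallest gap. The mean log2 ratio was -1.45 ± 0.71 (SD), a 2.72-fold difference with an interval of -2.29 to -0.60 and an adjusted p of 0.106. Cldn4, which often appears together with Cldn3 and like it binds the Clostridium perfringens enterotoxin, lies next to it: the probes of Cldn3 (chr5:135463284-135463342, plus strand) and Cldn4 (chr5:135421347-135421406 and chr5:135422135-135422194, minus strand) are 41.9 kb apart on mm9. Cldn4 had 389, 629 and 769 units in the mutant, against 1401, 744 and 587 units in wild type. The genotypes overlapped, with the mutant lower on arrays 1 and 2 and higher on array 3. Its mean was -0.57 ± 1.15 (SD, adjusted p 0.576), and its second probe gave the same signs, with -1.53, -0.86 and 0.82.

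The other claudins were near background or near 0. Cldn10, known from kidney and gland epithelia, had 107, 101 and 88.7 units in the mutant, against 173, 114 and 200 units in wild type, and a log2 ratio of -0.68 ± 0.50 (SD, adjusted p 0.254). Cldn11, the claudin of myelin and of Sertoli cells, had 90.7, 120 and 96.1 units in the mutant, against 124, 221 and 145 units in wild type, and a log2 ratio of -0.64 ± 0.22 (SD, adjusted p 0.182). With the ratios of the scanner software Cldn10 had -1.35 (adjusted p 0.178) and Cldn11 had -2.07 (adjusted p 0.0646). Both lay within a few fold of the dimmest signal called above background (50.1 to 82.7 units), and Cldn11 was above background in the mutant on 2 arrays of 3. Cldn12, a claudin known for calcium passage in the gut and bright here, had a log2 ratio of 0.01, with an interval of -0.51 to 0.54. Cldn8, Cldn14, Cldn19 and Cldn23 had means from -0.17 to -0.06, with both genotypes dim, and Cldn14 was above background in wild type on 2 arrays of 3.

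The stretch just before the transcription start is shown for the claudins at least 2-fold higher on every array and for the neighbours Cldn3 and Cldn4, whose means were negative. The sequences are from RefSeq (GRCm38.p6, a later build than the probe coordinates) and cover the 250 bases before the start, 5′ to 3′ on the gene's strand: Cldn2 at chrX:139800558-139800807 (plus), Cldn6 at chr17:23679115-23679364 (plus), Cldn3 at chr5:134985964-134986213 (plus) and Cldn4 at chr5:134946935-134947184 (minus). Capitals mark matches to 3 motifs searched on both strands: CAGGTG, the E-box that Snail and Zeb repressors bind, AACNGGTT for grainyhead-like factors, and CATAAA for caudal factors such as Cdx2. CAGGTG is a form of E-box that other factors bind as well, and matches to different motifs did not overlap in these 4 windows.
Cldn2: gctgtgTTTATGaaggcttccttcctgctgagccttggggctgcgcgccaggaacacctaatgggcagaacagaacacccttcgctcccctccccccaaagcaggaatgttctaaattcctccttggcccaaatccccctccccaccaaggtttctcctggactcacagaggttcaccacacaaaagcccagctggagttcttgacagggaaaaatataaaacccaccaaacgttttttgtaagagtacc
Cldn6: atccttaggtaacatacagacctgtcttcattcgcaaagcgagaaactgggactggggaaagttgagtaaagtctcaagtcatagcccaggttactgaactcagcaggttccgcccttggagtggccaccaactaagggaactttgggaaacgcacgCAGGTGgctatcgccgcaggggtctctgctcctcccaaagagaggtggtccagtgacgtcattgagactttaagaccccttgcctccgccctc
Cldn3: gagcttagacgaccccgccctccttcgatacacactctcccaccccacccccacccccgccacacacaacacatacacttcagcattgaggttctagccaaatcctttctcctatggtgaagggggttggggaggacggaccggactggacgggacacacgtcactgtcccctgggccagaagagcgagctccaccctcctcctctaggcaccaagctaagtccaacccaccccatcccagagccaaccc
Cldn4: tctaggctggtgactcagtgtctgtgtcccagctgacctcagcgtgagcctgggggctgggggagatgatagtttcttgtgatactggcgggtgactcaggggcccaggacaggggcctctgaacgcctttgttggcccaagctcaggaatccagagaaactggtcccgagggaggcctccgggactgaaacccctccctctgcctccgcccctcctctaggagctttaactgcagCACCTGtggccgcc
Cldn2 held 1 match to CATAAA on the opposite strand, Cldn6 and Cldn4 held 1 match to CAGGTG each, and Cldn3 held none of the 3 motifs. Windows were found for 21 of the 32 measured junction genes, 32 windows in all because some genes have several starts. CAGGTG was in 9 of them, or 28.1%, against 17.2% of 32851 windows of all genes, and its genes were Cldn4, Cldn6, Cldn7, Cldn14, F11r, Ocln, Pkp4 and Tjp3. AACNGGTT was in 1, or 3.12%, against 1.79%, and CATAAA in 3, or 9.38%, against 10.8%. A match is a run of letters and not a bound site.

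**Figure D2:**
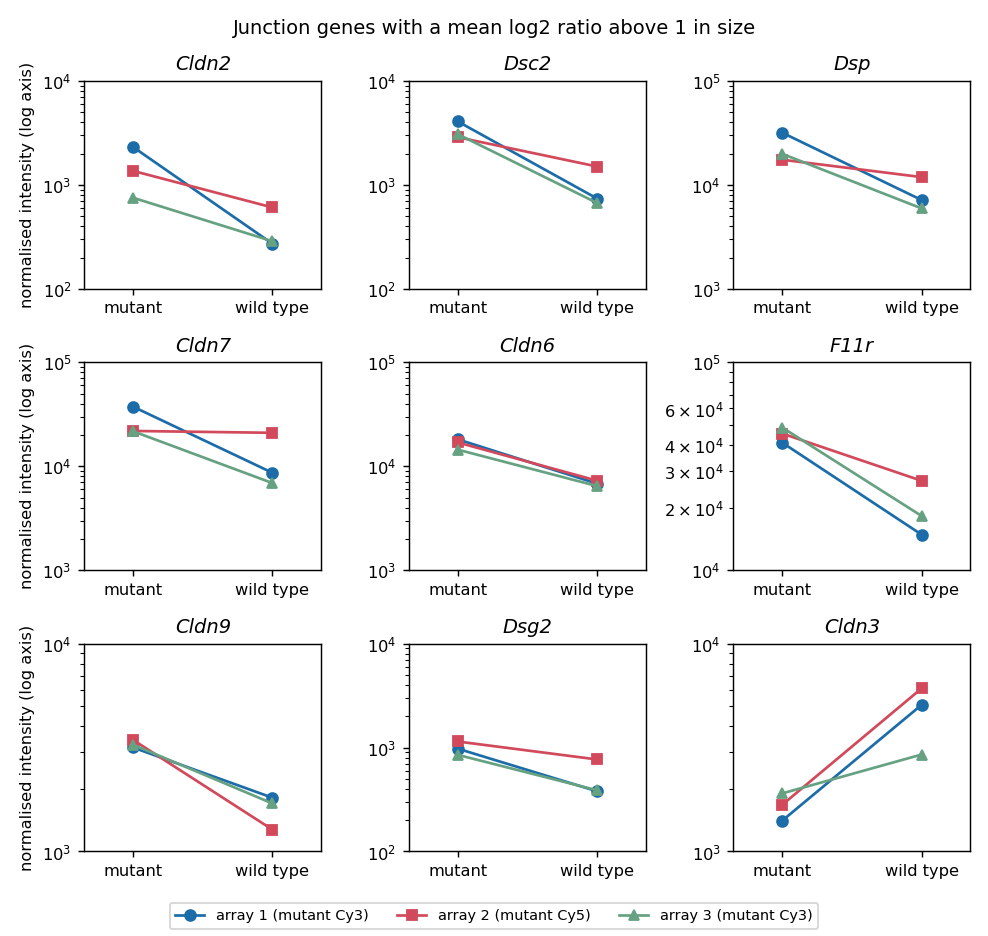
Normalised intensity (linear units on a log axis) in mutant and wild-type embryoid bodies for the 9 junction genes whose mean log2 ratio exceeds 1 in size, with a line joining the 2 RNAs of an array. Mutant values lie above all wild-type values for 8 of the genes and below them for Cldn3, and the array 2 line is the flattest for Cldn2, Dsc2, Dsp, Cldn7, F11r and Dsg2.

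The other membrane proteins of the tight junction were led by F11r, an immunoglobulin-type adhesion molecule that recruits polarity proteins to young junctions. F11r had 41103, 45449 and 48572 units in mutant embryoid bodies, against 14823, 26920 and 18225 units in wild type. All mutant values exceeded all wild-type values, and array 2 had the highest wild-type value. The mean log2 ratio was 1.21 ± 0.40 (SD), a 2.32-fold difference with an interval of 0.60 to 1.82 and an adjusted p of 0.0823. Ocln, the tetraspan protein that was the first membrane protein found in tight junctions, had 6011, 3603 and 3189 units in the mutant, against 1251, 5913 and 1449 units in wild type. The mutant was higher on arrays 1 and 3 and lower on array 2, where the wild-type level far exceeded those of the other arrays. Its log2 ratio of 0.90 ± 1.5 (SD, adjusted p 0.482) had the widest spread of all junction genes, and its second probe repeated the pattern with 1.46, -0.79 and 0.80.

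Marveld2 (tricellulin), which seals the points where 3 cells meet, had a log2 ratio of 0.33 ± 0.48 (SD, adjusted p 0.552). Marveld3, a relative of occludin, had 0.13 ± 0.70 (SD, adjusted p 0.867), and both were higher in the mutant on arrays 1 and 3 and lower on array 2. Marveld1 rested on 2 arrays, since the spot of its brighter probe on array 1 was an outlier, and gave 0.35 and -0.45 there. Its dimmer probe was higher in the mutant on all 3 arrays, with 0.90, 0.71 and 0.53, so the 2 probes disagreed.

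The scaffolds lie under the strands. Cgn, which joins zonula occludens proteins to actomyosin, had 8898, 10611 and 9443 units in the mutant, against 3349, 9126 and 3993 units in wild type. The genotypes overlapped through the wild-type value of array 2 alone. Its log2 ratio was 0.96 ± 0.65 (SD, adjusted p 0.189). Tjp1 (ZO-1), the scaffold from which claudin strands are laid down, had 0.36 ± 0.82 (SD, adjusted p 0.644), and Tjp3 (ZO-3) had 0.45 ± 0.54 (SD, adjusted p 0.441). Both of these were higher in the mutant on arrays 1 and 3 and lower on array 2.

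In the desmosome, the 2 cadherins measured were the pair found in simple epithelia and heart muscle, Dsc2 and Dsg2. Dsc2 had 4091, 2882 and 3084 units in mutant embryoid bodies, against 740, 1504 and 671 units in wild type. Mutant values were all above wild-type values, and array 2 had the lowest mutant and the highest wild-type level. The mean log2 ratio was 1.87 ± 0.82 (SD), a 3.65-fold difference with an interval of 0.94 to 2.80 and an adjusted p of 0.0802. Dsg2 had 977, 1144 and 852 units in the mutant, against 380, 769 and 388 units in wild type, again without overlap. Its log2 ratio was 1.02 ± 0.41 (SD, adjusted p 0.113). A dimmer Dsg2 probe gave 1.00, -1.06 and 0.81, so the sign on array 2 depended on the probe.

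Dsp, the plaque protein that anchors intermediate filaments and that every desmosome needs, had 31827, 17493 and 19900 units in the mutant, against 7156, 11894 and 5943 units in wild type. The genotypes did not overlap, with the gap narrowest on array 2. Its log2 ratio was 1.48 ± 0.83 (SD), a 2.80-fold difference with an interval of 0.55 to 2.42 and an adjusted p of 0.123. A second Dsp probe was at background in both genotypes on all arrays. Pkp2, the plakophilin of heart and simple epithelium, had 7136 and 5606 units in the mutant on arrays 1 and 3, against 3994 and 2767 units in wild type, and its spot on array 2 was an outlier. Over those 2 arrays its log2 ratio was 0.93 ± 0.13 (SD, n = 2, adjusted p 0.179).

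The rest of the plaque genes had means near 0, with both genotypes overlapping at each gene. Jup (plakoglobin), shared by desmosomes and adherens junctions, had 0.02 ± 0.23 (SD), with 209, 197 and 183 units in the mutant, against 212, 223 and 151 units in wild type. Its interval ran from -0.50 to 0.54 at this probe, which is dim. Pkp3 had 0.22, Pkp4 0.07, Evpl 0.15 and Ppl -0.07, with adjusted p from 0.638 to 0.906. Evpl and Ppl encode plakins of stratified epithelium that join the cornified envelope. Over all 32 genes, the mutant intensities lay wholly above the wild-type ones for 11, or 34.4%, against 13.2% of all genes, and wholly below for 3, or 9.38%, against 8.74% of all genes. The 3 were Cldn3 and the dim Cldn10 and Cldn11, of which Cldn11 counted as measured through wild type only.

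The 18 junction genes that were not measured included most desmosome genes of stratified epithelium. Dsg1a, Dsg1b, Dsg1c, Dsg3, Dsg4, Dsc1 and Dsc3 were never above background on any array with any probe, and Pkp1 was above it in wild type on 2 arrays. The values of these 8 genes ran from 65 to 91.8 units in the mutant and from 66 to 95.2 units in wild type. Epidermis markers, a list of 4 keratinocyte genes, were all measured and summed to 2638, 2463 and 2181 units in the mutant, against 2976, 2119 and 3691 units in wild type. Trp63 gave the largest part of each of these sums. The claudins not measured were Cldn1, Cldn13, Cldn16, Cldn17, Cldn18, Cldn20, Cldn22, Cldn24, Cldn26 and Cldn27, and 5 of these 10 were never above background. For these genes no ratio is given, since both genotypes were at or near background.

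Junction genes differed between arrays. Of the 30 junction genes with all arrays, 16 had their highest wild-type level on array 2, or 53.3%, against 39.5% of all genes, and 18 had their lowest ratio there, or 60%, against 44.4% of all genes. The median ratio of the junction genes was 0.69, 0.08 and 0.51 on arrays 1, 2 and 3, while the medians of all genes were between 0.0024 and 0.028. Across the 30 genes the ratios correlated with r = 0.528 between arrays 1 and 2, 0.828 between arrays 1 and 3 and 0.503 between arrays 2 and 3. Over all genes these were 0.378, 0.793 and 0.194, and both sets of values are descriptions over genes that share their arrays. In Cldn9 and the dim Cldn11 the genotypes were furthest apart on array 2, with ratios of 1.44 and -0.88 there. Cldn3 had nearly equal ratios of -1.85 and -1.86 on arrays 1 and 2. Cldn6 and Cldn15 had 1.22 and 0.97 on array 2, close to their other arrays. On array 2 the dye orientation and the biological replicate cannot be told apart. With a dye term in the fit, which takes its spread from arrays 1 and 3 alone, 9 of 30 junction genes passed as higher, against 7.49% of all genes, and 0 as lower, against 4.72%. These were Cgn, Cldn6, Cldn7, Cldn9, Cldn15, Dsc2, Dsg2, Dsp and F11r.

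**Figure D3:**
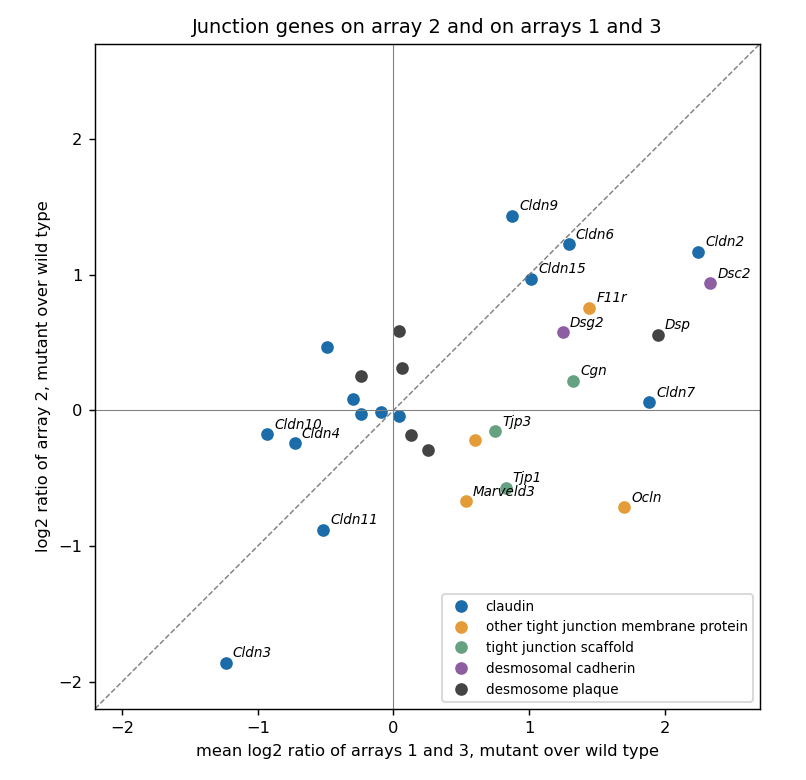
Log2 ratio on array 2 (vertical axis) against the mean log2 ratio of arrays 1 and 3 (horizontal axis) for junction genes with all 3 arrays, coloured by role, with the dashed line marking equal ratios. Cldn9 lies above the line and Cldn6 and Cldn15 lie close to it at ratios of about 1, while Ocln, Cldn7, Dsp and Tjp1 lie well below it.

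Genes that work with these junctions were taken from lists drawn up from textbook knowledge. Of 38 names of scaffold, polarity and JAM family genes, 35 were on the array and 31 were measured, and 12 were higher and 2 lower at an unadjusted p under 0.05, against 12% and 7.59% of all genes. The names hold Patj and Pals1 as synonyms of Inadl and Mpp5, which were measured. Mpp5 (Pals1), a polarity scaffold that ties the Crumbs complex to tight junctions, rose in the mutant with a log2 ratio of 2.51 ± 0.45 (SD) and an adjusted p of 0.0413. The next in size were Amot, an angiomotin at junctions, with 1.32 ± 0.94 (SD, adjusted p 0.175), and Jam2, a relative of F11r, with -1.32 ± 1.49 (SD, adjusted p 0.317). The list's median was 0.23. The calls in this and the following lists are lost without array 1 or without array 3, since 0 genes passed in either fit.

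Of 22 adherens junction names, 17 were on the array and all 17 were measured, with Pkp4 also among the junction genes above. The remaining names, Nectin1 to Nectin4 and Afdn, are synonyms of Pvrl1 to Pvrl4 and Mllt4, which were measured. None passed the adjusted threshold, 2 were higher and 0 lower at an unadjusted p under 0.05, against 12% and 7.59% of all genes, and the median was 0.23. Cdh2 (N-cadherin), the cadherin of neural and heart cells, had -1.47 ± 1.72 (SD, adjusted p 0.328), lower on arrays 1 and 3 and higher on array 2. Pvrl2 (nectin 2) had 1.21 ± 0.12 (SD, n = 2, adjusted p 0.123) and Cdh3 (P-cadherin) 1.10 ± 0.62 (SD, adjusted p 0.146). Cdh1 (E-cadherin), named here after its value was seen, had 0.32 ± 0.96 (SD, adjusted p 0.724), with 0.70, -0.77 and 1.04 on arrays 1, 2 and 3.

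Of 17 partners of the desmosome among filament and desmosome-associated genes, all were on the array and 16 were measured, and 4 were higher and 1 lower at an unadjusted p under 0.05, against 12% and 7.59% of all genes. Here 2 keratins of simple epithelium rose in the mutant, Krt20 with a log2 ratio of 2.80 ± 0.45 (SD, adjusted p 0.0369) and Krt19 with 1.69 ± 0.18 (SD, adjusted p 0.0455). Krt18 had 1.73 ± 0.77 (SD, adjusted p 0.0860) and its usual partner Krt8, named after its value was seen, 1.47 ± 0.64 (SD, adjusted p 0.0908). The rise did not extend to Krt7, a keratin also named after its value was seen. It had 0.01 ± 1.29 (SD, adjusted p 0.995), with -1.47, 0.57 and 0.93 on arrays 1, 2 and 3. Keratins Krt5 and Krt14 of basal epidermis had -0.11 and 0.12. The list's median was 0.42.

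All 19 regulators of epithelial transcription and splicing on their list were measured, with 4 higher and 1 lower at an unadjusted p under 0.05, against 12% and 7.59% of all genes, and a median of 0.32. Foxa1, a forkhead factor of endoderm, rose in the mutant with 1.78 ± 0.34 (SD, adjusted p 0.0490). Cdx2, the caudal factor of trophoblast and gut, had 2.14 ± 0.56 (SD, adjusted p 0.0509), and Hnf4a, a nuclear receptor of visceral endoderm and liver, had 2.08 ± 1.05 (SD, adjusted p 0.0940). Grhl2, a grainyhead-like activator of junction genes, named after its value was seen, had -0.11 ± 0.64 (SD, adjusted p 0.880). Its relatives, named likewise, had positive means. Grhl1 had 0.65 ± 0.90 (SD, adjusted p 0.433) and differed in sign between arrays. Grhl3 had 0.58 ± 0.45 (SD, adjusted p 0.295) and was higher on every array.

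**Figure D4:**
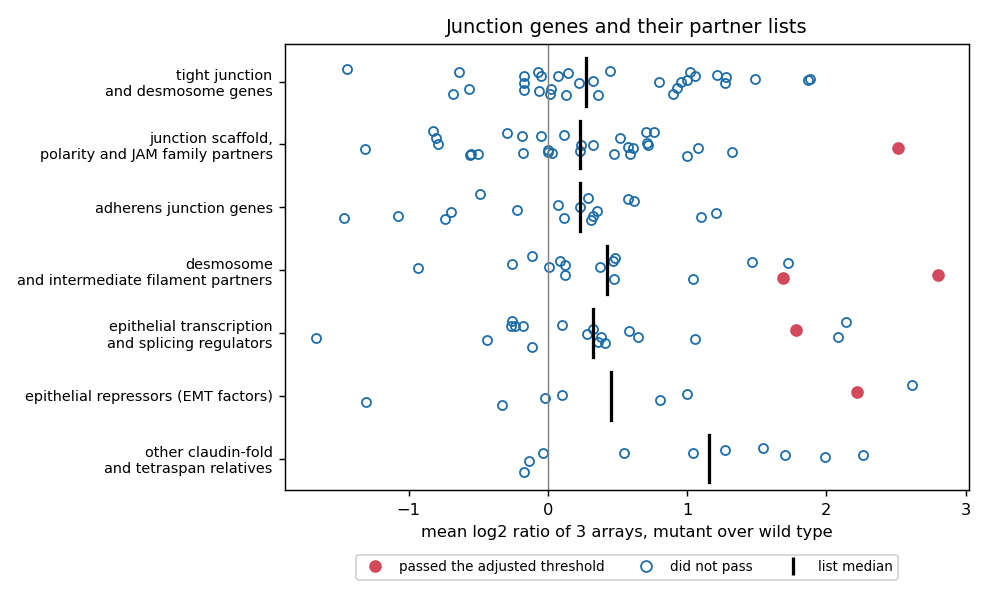
Mean log2 ratio of mutant over wild type (horizontal axis) for each measured gene of the junction set and of the 6 partner lists, with filled points for genes past the adjusted threshold and a bar at each list's median; a few genes rest on 2 arrays. The junction set has its median at 0.27 and no filled point, and filled points stand for Mpp5, Krt20, Krt19, Foxa1 and Twist2.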

How the data were processed

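RNA of 3 mutant and 3 wild-type samples of embryoid bodies was hybridised in pairs on 3 two-colour arrays, per the labels. The deposited scanner files hold spot and background intensity from Agilent Feature Extraction 10.7.3.1, with a log10 ratio of red over green, per the file headers. A value table deposited by the authors gives log2 ratios per array, and limma is the tool in the submitters' processing notes, with no version. Regressed on the scanner ratios over spots brighter than 1000 units in both dyes, this table gave slopes of 0.909, 0.921 and 0.953, which sets its scale as log2 and its direction as mutant over wild type. Its medians were -0.02, 0.02 and -0.01, and how it was centred and background-corrected is unknown.

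In R 4.3.3 with limma 3.58.1, local background was limited to 100 units, because 25 spots of array 2 had backgrounds above that, up to 75739 units, against at most 60 on the other arrays. Intensities were corrected with normexp (offset 50, added to every level) and loess-normalised within arrays, and channel levels were Aquantile-scaled. Outlier and control spots were left out, spots of a probe averaged, and 26291 of 39429 probes kept as well above background. The brightest probe stood for each gene. By array, the median green intensity was 192, 202 and 288 and the median red intensity 151, 205 and 210, between 64.8% and 76.0% of spots per channel were well above background, and 0 spots were saturated. The mean ratio of each gene was compared with 0 by limma's moderated test (lmFit, eBayes), two-sided, and p-values were adjusted by Benjamini-Hochberg over all 20094 genes. With 3 arrays the test has 4.74 degrees of freedom including the prior, and the number of arrays limits precision.

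Junction genes, lists and the rule for which genes are named were chosen with earlier results of these data known. That rule gives full values for junction genes past the threshold, 2-fold on every array or with a mean log2 ratio of at least 1 in size, and for each list its called genes and the 3 largest in size. Outside the rule, full values were also given for Cldn4, Cldn10, Cldn11, Cldn15, Ocln, Cgn, Pkp2 and Jup, with their values known. The same holds for naming Krt5, Krt7, Krt8, Krt14, Cdh1, Grhl1, Grhl2 and Grhl3 in the lists. Alternatives were other backgrounds, the scanner ratio, median centring, scaling, other filters, the mean of probes, a dye term, the authors' values and leaving out each replicate. All arrays lie on 1 slide, so slide is no batch. Probe coordinates are those of the files (mm9). Exons under probes were not assigned. The totals include 1 junction gene that is not reported here.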

Additional observations from a re-analysis of the deposited data

How the results depend on the processing

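The count of 276 genes past the adjusted threshold depended on the setting, and the count of 0 junction genes on fewer settings. It became 0 genes without the background limit, without the filter on dim probes and in the authors' value table (3034, 4869 and 3865 at an unadjusted p under 0.05), 755 with the scanner log ratio, 2378 with the dye term, and between 0 and 5036 when a replicate was left out. Junction genes past it were 1 with the scanner log ratio, 9 with the dye term, and between 0 and 16 when a replicate was left out, the 16 being without replicate 2. Under the other settings none passed. Without the background limit, 13 junction genes had an unadjusted limma p under 0.05, and 12 of them were higher. Cldn10 and Cldn11, lower at that level in the main fit, then had 0.0771 and 0.112. No called junction gene existed that could reverse, but means close to 0 changed sign. Cldn12 was -0.067 with the scanner log ratio, -0.00026 with the dye term and -0.023 in the authors' table. Jup was -0.0047 with the scanner log ratio and -0.028 with the dye term. Marveld1 was 0.0083 with median centring and 0.49 with the mean of its probes. With the dye term Marveld3 was -0.070, Pkp4 -0.019 and Ppl 0.0066. Leaving out 1 replicate gave ranges of -0.12 to 0.12 for Cldn12, -1.05 to 0.074 for Cldn4, -0.080 to 0.53 for Marveld3, -0.14 to 0.25 for Pkp4, -0.24 to 0.11 for Ppl, -0.10 to 0.0043 for Cldn19, -0.49 to 0.20 for Cldn8 and -0.10 to 0.13 for Jup. The cause of these shifts was not tested. Slide as a block was not run, because there is 1 slide. The test of within-array ratios is itself paired, so no further block was fitted. In dim genes, Jup, Cldn10, Cldn11 and Cldn15 among them, the offset is a large share of the signal, which can shrink a ratio. Cldn10, Cldn11 and Cldn15 had -1.35, -2.07 and 1.67 with the scanner log ratio. Without background correction they had -0.62, -0.66 and 0.97. Jup was near 0 under both settings. The part of the offset in these differences was not tested.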

Other observations

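The claudin fold, a protein with 4 membrane passes, is shared by families outside the junction genes, among them the peripheral myelin protein and epithelial membrane protein family. Of 11 such relatives listed, 10 were on the array under the listed name and measured. The other, Tmem114, is the gene named Cldn26 on the array, counted above among the junction genes not measured. None of the 10 passed the adjusted threshold, and 5 were higher and 0 lower at an unadjusted p under 0.05, against 12% and 7.59% of all genes. The list's median log2 ratio was 1.16. Emp1, an epithelial membrane protein, had 2.26 ± 0.84 (SD, adjusted p 0.0624), with 2.48, 1.33 and 2.97 on arrays 1, 2 and 3. Pmp22, the myelin protein that also sits at epithelial junctions, had 1.99 ± 0.50 (SD, adjusted p 0.0512), and Tmem204, a claudin-like protein of endothelium, had 1.70 ± 0.52 (SD, adjusted p 0.0600). These 3 were higher in the mutant on every array, array 2 included.

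Repressors of epithelial genes that act in epithelial to mesenchymal transition were all measured, 8 of 8, with 4 higher and 1 lower at an unadjusted p under 0.05, against 12% and 7.59% of all genes, and a median of 0.46. Twist2, a basic helix-loop-helix factor of mesenchyme, rose in the mutant with 2.22 ± 0.37 (SD, adjusted p 0.0432), a call lost without replicate 1 or 3. Snai2 (Slug) had 2.62 ± 1.16 (SD, adjusted p 0.0727), and Snai1 (Snail) had -1.31 ± 0.48 (SD, adjusted p 0.0835). These 2 relatives, which bind the same E-box, differed in sign on every array.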
